A study of Mus musculus with 4 samples.

Results

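The genes described here are the extracellular matrix genes of feeder type in RNA-seq of a mouse large pre-B cell line. They were taken by symbol from the count tables: 45 rows with a collagen-type symbol (Col, a number, the letter a and a number), 11 laminin chains, 4 thrombospondins and 16 named genes, from Fn1 to Vcan. These were 76 of the 23420 gene rows. Of these, 1 row is no matrix gene: Col4a3bp, which encodes a ceramide transfer protein, has a symbol that begins like a collagen's. It was kept as the rule takes it and is named apart, which leaves 75 matrix genes. Both groups were the same line, which has the genotype Irf4/8-/- and so lacks the transcription factors Irf4 and Irf8. The cells had been grown with interleukin 7 on OP9, a mouse stromal line used as a feeder layer. One group received a retrovirus with a hairpin against Myb (shMyb), the other one with a hairpin against luciferase (shLuc), and both viruses carried green fluorescent protein, by which the cells were sorted 72 hours later. Each group had 2 libraries from duplicate sets of wells of this 1 line, so a p-value measures the spread between those duplicates and not between lines or animals.

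The extracellular matrix is the mesh of secreted proteins around cells. Collagens form its fibrils and networks as trimers of chains, laminins, nidogen and type IV collagen form basement membranes, and fibronectin, thrombospondins, fibrillin and small proteoglycans bind cells, growth factors and fibrils. Lysyl oxidase crosslinks collagen, matrix metalloproteinases cut the matrix, and Timp proteins inhibit them. In bone marrow these genes are known above all from stromal cells and also from some blood cells.

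The libraries held between 36573743 and 44682954 counts. Levels are given as CPM, counts scaled to the library size after TMM normalization, and a count of 0 allows up to 3 counts, which were worth 0.0688 to 0.0799 CPM per library (counting error only). Myb itself was no lower with its hairpin than without: it was at 616 and 600 CPM in shLuc and at 617 and 639 CPM in the shMyb-labelled libraries (log2 fold change 0.05, SE 0.04, 95% interval -0.03 to 0.12, edgeR adjusted p = 0.283). Directions below are therefore given as differences between the 2 labels. The 10 pre-B cell markers looked at were present in all 4 libraries and summed to between 5344 and 6043 CPM. Across all 12610 genes that could be tested, 62.2% were called at an adjusted p below 0.05, 30.6% higher and 31.7% lower in the shMyb-labelled libraries.

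The first question was which matrix genes stood above background. Of the 76 members, 6 had no count in any library: Col4a3, Col4a4, Col4a6, Col9a1, Col10a1 and Col25a1. A further 8 had at most 3 counts in every library, among them the proteoglycan gene Lum, the laminin chain gene Lama2 and the transmembrane collagen genes Col13a1 and Col17a1. Another 11 exceeded 3 counts in a library but had too few counts to be tested; Col28a1, for instance, had 0 and 0 counts in shLuc and 6 and 13 in the shMyb-labelled libraries, and Col14a1 had 2, 0, 3 and 6. That left 51 members that passed the low-count filter, 45 of which averaged 1 CPM or more in either group. The other 6 (Lama3, Lama4, Postn, Thbs3, Col12a1 and Col6a5) were tested on levels below that. A low level alone does not mark a gene as specific to a cell type here. Of 38 genes restricted to tissues such as liver, eye, muscle or testis, 20 had no count and 27 had at most 3 in every library, yet 5 passed the filter, led by Umod, a kidney gene, with means of 6.18 CPM for shLuc and 24.5 CPM for shMyb, and by Cela1, a pancreas gene, at 1.46 and 3.20 CPM. Of these 5, 4 were called higher in the shMyb-labelled libraries and 0 lower, with a median log2 fold change of 1.34. Among all tested genes under 10 CPM 37.4% were called higher and 14.2% lower.

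Set per kilobase of exon, 1 matrix gene stood far above the rest. Lamc1, the laminin gamma chain shared by most laminins (chromosome 1, 153218922 to 153332786, minus strand, GRCm38), was at 28.7 CPM per kilobase in shLuc and 33.9 in the shMyb-labelled libraries. The laminin chain genes Lamb3 (7.06 and 5.90) and Lama5 (3.61 and 3.97) followed, then Thbs1 (2.63 and 0.966), Col1a1 (1.99 and 2.09) and Col11a2 (1.84 and 2.96). The non-matrix gene Col4a3bp was at 14.0 in each group. The order of the levels below Lama5 thus differed between the groups. Summed over all 76 members, the libraries held 656 and 607 CPM in shLuc, against 652 and 668 CPM in the shMyb-labelled libraries, so the sums overlapped, and Lamc1 and Col4a3bp made up most of each. With Col4a3bp, Lamc1, Lamb3 and Lama5 left out, a choice made after their levels were seen, the other 72 members summed to 208 and 174 CPM in shLuc, against 171 and 190 CPM in the shMyb-labelled libraries, which overlapped as well.

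**Figure D1:**
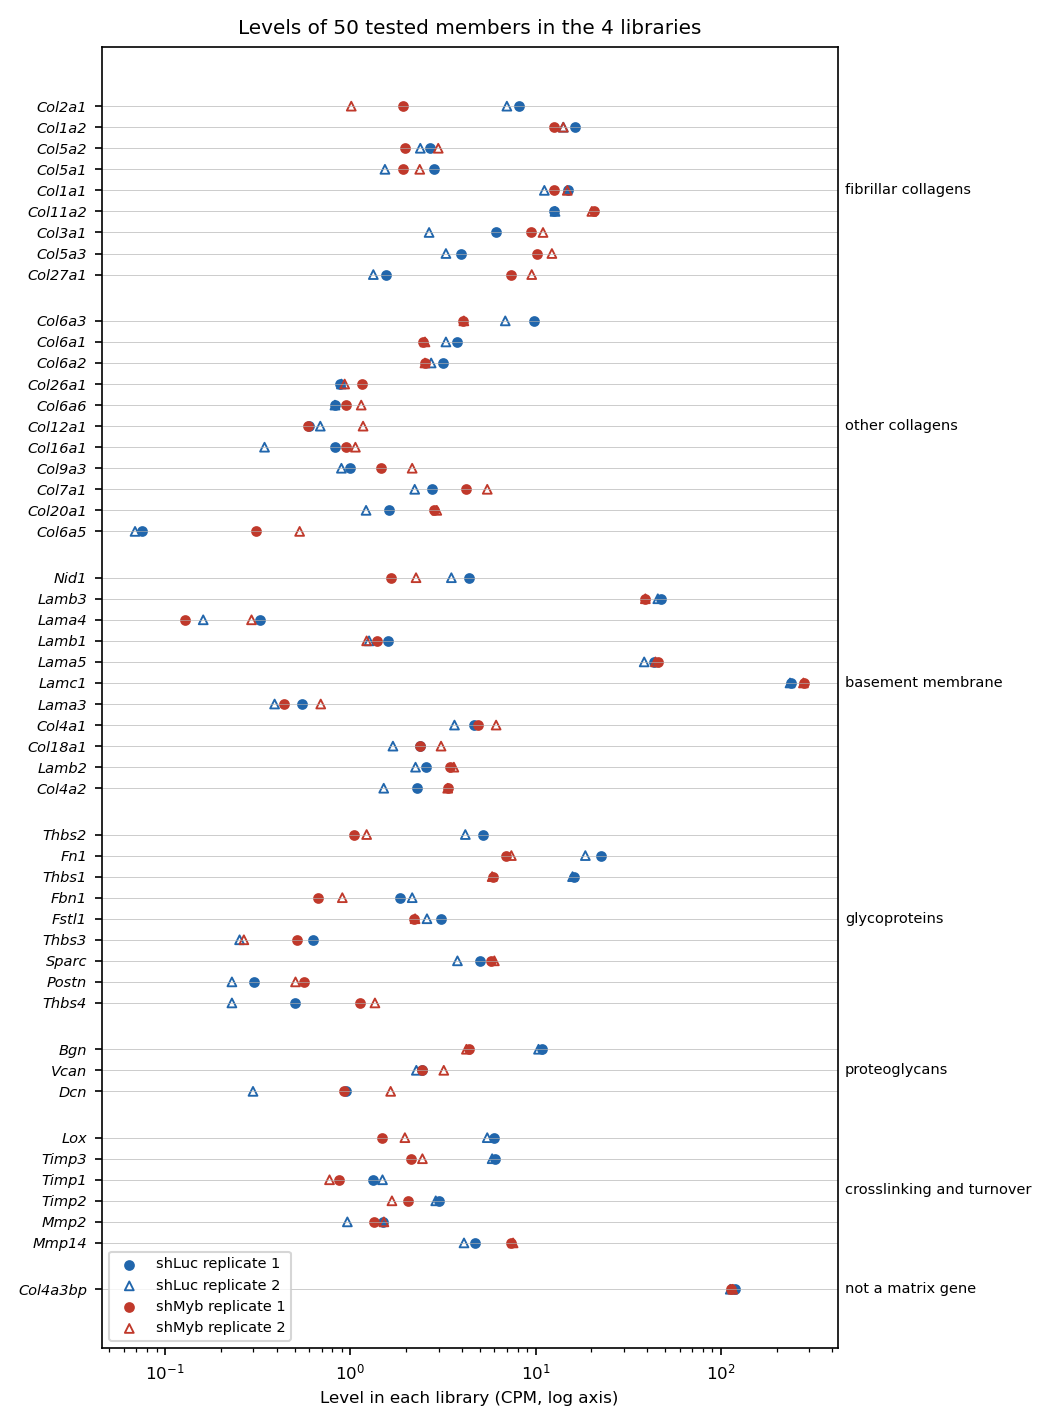
Level of 50 of the 51 tested members in every library (CPM, log axis), grouped by role; circles are replicate 1 and triangles replicate 2, blue shLuc and red shMyb. Lamc1 lies between 236 and 282 CPM, Fn1, Thbs1 and Bgn separate with shLuc on the right, Col27a1 and Col5a3 separate with shMyb on the right, and Col1a1 overlaps.

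The second question was whether the members moved together, and the data show that they did not move as 1 set. Of the 51 tested members, 18 rose, 14 fell and 19 were not called in the shMyb-labelled libraries, so 62.7% were called against 62.2% of all tested genes. The share higher was 35.3% (30.6% of all genes) and the share lower 27.5% (31.7% of all genes), which is close to the background over all levels. Of the 42 members under 10 CPM, 35.7% were higher and 26.2% lower, beside 37.4% and 14.2% of all tested genes of that level. The share lower was thus above that of genes of the same level. Called changes of at least 2-fold went both ways, with 7 members higher (13.7%, against 8.1% of all tested genes) and 9 lower (17.6%, against 2.36%). Under 10 CPM, where most members lie, 7 of 42 were higher by that much and 7 lower (16.7% each), beside 22.2% and 5.93% of all tested genes of that level. The groups did not overlap in 39 members (76.5%), against 82.1% of all tested genes. Fold changes ran from -2.36 for Col2a1 to 2.55 for Col27a1 on the log2 scale, with a median of 0.22, against 0.0048 over all tested genes. In these bulk libraries, fewer cells of a type and less RNA per cell cannot be told apart.

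**Figure D2:**
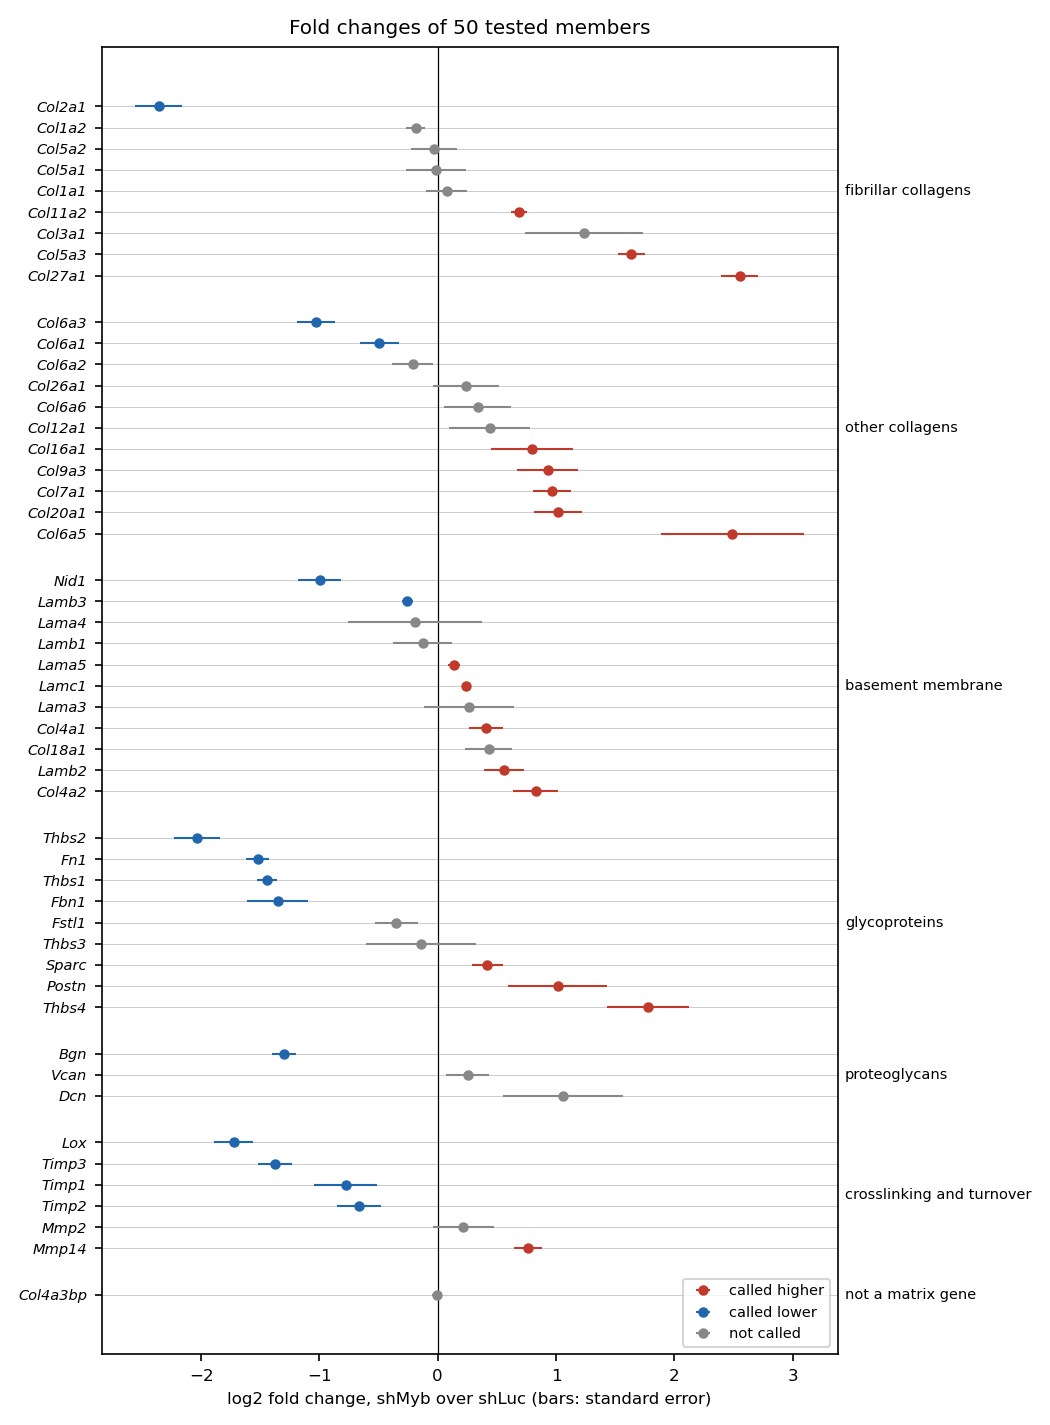
log2 fold change (shMyb over shLuc) of 50 of the 51 tested members with the standard error, grouped by role; red was called higher, blue lower and grey not called at an adjusted p below 0.05. Each role of matrix genes holds members on both sides of 0, from Col2a1 at -2.36 to Col27a1 at 2.55.

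Fold changes differed with the abundance of a gene, and genes of low level tended to be higher in the shMyb-labelled libraries. The median log2 fold change of all tested genes was 0.60 below 0.5 CPM, 0.24 from 2 to 5 CPM and -0.13 above 300 CPM. Of the 51 members, 42 lay under 10 CPM, where their median was 0.26 and that of all 3965 tested genes 0.31. Of the 20 members from 2 to 5 CPM, 7 rose and 7 fell, whereas of all tested genes at that level 42.0% rose and 17.8% fell. With the trend removed by a loess fit per library, 13 members were called higher and 17 lower with a median of -0.05, so that 43.3% of the called members were higher instead of 56.2%. Under the same correction 48.8% of all called genes were higher, with a median of -0.0050 over all tested genes.

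**Figure D3:**
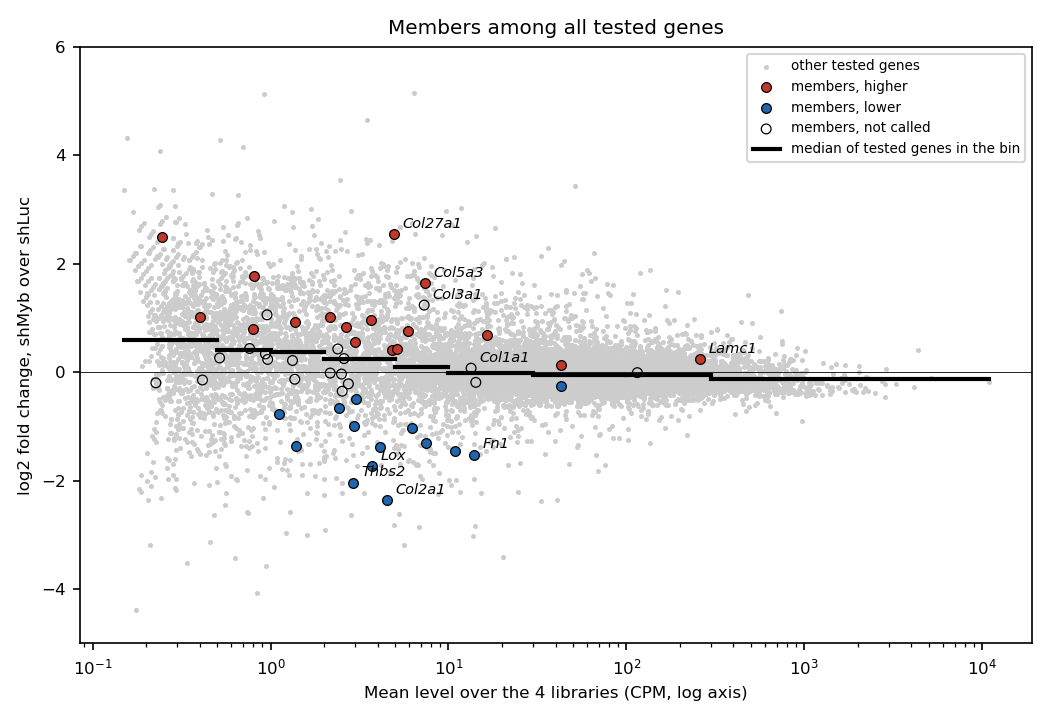
Mean level over the 4 libraries (CPM, log axis) against the log2 fold change for all 12610 tested genes (grey) and 50 tested members (red called higher, blue called lower, open not called), with the median of tested genes in each range of level as black bars. The bars run from 0.60 at the lowest levels to -0.13 at the highest, and Thbs2 and Fn1 lie well below them.

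Of the 9 tested glycoprotein genes 4 fell (44.4%), 3 rose (33.3%) and 2 were not called. Among all tested genes 31.7% fell and 30.6% rose, and among those under 10 CPM 14.2% fell and 37.4% rose. The summed level of the glycoprotein genes was 55.4 and 47.8 CPM in shLuc, against 24.8 and 25.7 CPM in the shMyb-labelled libraries. Fn1, which encodes fibronectin, the ligand of several integrins (chromosome 1, 71585520 to 71653200, minus strand), was at 22.7 and 18.6 CPM in shLuc and at 6.95 and 7.40 CPM in the shMyb-labelled libraries. Both shLuc libraries were thus above both others, and it fell by 1.52 on the log2 scale (SE 0.10, edgeR adjusted p = 8.5e-10), a 2.87-fold lower mean. Thbs1, thrombospondin 1, a matricellular protein that binds latent TGF-beta (chromosome 2, 118111876 to 118127133, plus strand), was at 16.2 and 15.8 CPM in shLuc and at 5.90 and 5.83 CPM in the others. The duplicates lay almost on each other, and Thbs1 fell by 1.45 (SE 0.08, edgeR adjusted p = 1.8e-13). Thbs2, its close relative (chromosome 17, 14665500 to 14694235, minus strand), was at 5.18 and 4.18 CPM against 1.05 and 1.22 CPM and fell by 2.03 (SE 0.19), a 4.11-fold lower mean. Fbn1, fibrillin 1 of elastic microfibrils, fell from 2.0 ± 0.216 to 0.786 ± 0.168 CPM (SD, n = 2 each; log2 fold change -1.35).

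Other glycoproteins did not follow. Thbs4 was at 0.50 and 0.229 CPM in shLuc and at 1.13 and 1.36 CPM in the shMyb-labelled libraries and rose by 1.78 (SE 0.35, edgeR adjusted p = 9.9e-05). Without 1 library that value ran from 1.30 to 2.40. Thbs3 overlapped at 0.626, 0.252, 0.513 and 0.266 CPM. The 4 thrombospondin genes therefore held 2 that fell, 1 that rose and 1 that was not called. Sparc, osteonectin, a collagen-binding protein abundant in stromal cells, was at 5.03 and 3.79 CPM against 5.77 and 5.99 CPM and was called higher (0.42, SE 0.13). That call ended without shLuc replicate 2 (0.22) and with the trend correction (0.28). Postn, periostin, was called higher (1.01) on only 10 to 22 counts per library, and the call ended without any 1 of the 4 libraries, where the value lay between 0.82 and 1.19. It also ended with the trend correction (0.47), without a filter (1.00) and with a replicate block (1.01). Fstl1, a secreted follistatin relative, was at 2.84 ± 0.343 and 2.22 ± 0.0211 CPM (SD, n = 2 each) and was not called (-0.35, edgeR adjusted p = 0.0965), though it was with the trend correction (-0.59).

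Among the genes of crosslinking and turnover, 4 of 6 fell and 1 rose. Beside these stand 31.7% lower and 30.6% higher among all tested genes, and 14.2% and 37.4% among those under 10 CPM. Lox, lysyl oxidase, was at 5.96 and 5.48 CPM in shLuc and at 1.49 and 1.97 CPM in the shMyb-labelled libraries and fell by 1.73 (SE 0.16, edgeR adjusted p = 1.5e-09), a 3.31-fold lower mean. Timp3, the inhibitor that binds to the matrix, was at 6.06 and 5.83 CPM against 2.13 and 2.45 CPM and fell by 1.38; its exons overlap those of Syn3 on the opposite strand. The other inhibitors moved less. Timp2 fell by 0.66 (-0.53 and not called without shMyb replicate 2), and Timp1 fell by 0.78 (not called without shLuc replicate 2, at -0.70, or without shMyb replicate 2, at -0.69). Mmp14, the membrane-bound metalloproteinase that activates Mmp2, went the other way, from 4.70 and 4.11 CPM to 7.39 and 7.56 CPM, and rose by 0.76 (SE 0.12, edgeR adjusted p = 3.7e-06). Mmp2 was at 1.5, 0.964, 1.33 and 1.52 CPM, so its groups overlapped (0.22, 95% interval -0.32 to 0.75).

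The proteoglycans split 1 to 2. Bgn, biglycan, which binds collagen fibrils (chromosome X, 73483602 to 73495933, plus strand), was at 10.8 and 10.4 CPM in shLuc and at 4.39 and 4.23 CPM in the shMyb-labelled libraries and fell by 1.30 (SE 0.10, edgeR adjusted p = 6.4e-11). Vcan, versican, overlapped at 2.45, 2.27, 2.44 and 3.20 CPM. Dcn, decorin, the relative of biglycan, was at 0.951 and 0.298 CPM in shLuc and at 0.924 and 1.65 CPM in the others, so shLuc replicate 1 was level with shMyb replicate 1. It was not called (1.06, edgeR adjusted p = 0.105), but without shLuc replicate 1 it was called higher at 2.07 and without shMyb replicate 1 at 1.42. Dcn was also called higher without a low-count filter (1.04), with limma-voom (1.21), with a replicate block (1.08) and with the crossed block (1.07), and was not called without shLuc replicate 2 (0.42) or with the trend correction (0.65).

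The fibrillar collagens gave the widest range. Col2a1, the collagen of cartilage (chromosome 15, 97975602 to 98004695, minus strand), was at 8.18 and 7.0 CPM in shLuc and at 1.92 and 1.01 CPM in the shMyb-labelled libraries and fell by 2.36 (SE 0.20, edgeR adjusted p = 1.9e-07). The opposite held for Col27a1, another cartilage collagen (chromosome 4, 63214004 to 63334991, plus strand), which was at 1.55 and 1.33 CPM against 7.39 and 9.53 CPM and rose by 2.55 (SE 0.16, edgeR adjusted p = 1.5e-12), a 5.87-fold higher mean. Col5a3, a minor chain of type V collagen (chromosome 9, 20770050 to 20815067, minus strand), was at 3.95 and 3.28 CPM against 10.2 and 12.2 CPM and rose by 1.64 (SE 0.12). Col11a2, a chain of type XI collagen, which is found in the fibrils of type II collagen in cartilage, rose from 12.6 ± 0.141 to 20.3 ± 0.30 CPM (SD, n = 2 each; log2 fold change 0.69).

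The collagens most typical of fibroblasts were not called. Col1a1, the main chain of type I collagen, was at 15.0 and 11.2 CPM in shLuc and at 12.7 and 14.8 CPM in the shMyb-labelled libraries, so both shMyb libraries lay within the span of shLuc (0.08, 95% interval -0.39 to 0.55). The interval of Fn1, from -1.72 to -1.31, lies wholly below that of Col1a1. Without shLuc replicate 1, Col1a1 was called higher at 0.28, and without shLuc replicate 2 it was at -0.14. Col1a2, the partner chain, was at 16.2 and 14.1 CPM against 12.5 and 14.1 CPM and just missed the threshold (-0.19, edgeR adjusted p = 0.0501); it was called lower at -0.30 without shLuc replicate 2 and at -0.27 without shMyb replicate 2. Col3a1 was at 6.11 and 2.66 CPM in shLuc and at 9.49 and 11 CPM in the others. Its groups did not overlap, but the shLuc duplicates lay far apart and it was not called (1.24, 95% interval -0.69 to 3.17, edgeR adjusted p = 0.160). Without shLuc replicate 1 it was called higher at 1.92 and without shLuc replicate 2 at 0.73. The other chains of type V collagen, Col5a1 (-0.01) and Col5a2 (-0.03), overlapped between the groups.

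In basement membrane genes 6 of 12 tested members rose and 2 fell. Lamc1 was at 238 and 236 CPM in shLuc and at 282 and 279 CPM in the shMyb-labelled libraries and rose by 0.24 (SE 0.04, edgeR adjusted p = 2.1e-06). Lamb3, a beta chain of an epithelial laminin, was at 47.6 and 45.7 CPM against 38.9 and 39.1 CPM and fell by 0.26 (SE 0.05, edgeR adjusted p = 3.8e-05). Lama3, the alpha chain of the same laminin, had 17 to 26 counts per library and was not called.

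Lama5, an alpha chain that pairs with Lamc1, was called higher by a small margin (0.14), which was lost without shLuc replicate 2 (0.04) and without shMyb replicate 1 (0.11). Nid1, nidogen, which links laminin to type IV collagen, was at 4.35 and 3.51 CPM against 1.67 and 2.26 CPM and fell by 1.00 on the log2 scale (SE 0.18). Type IV collagen went the other way: Col4a2 was at 2.30 and 1.51 CPM against 3.39 and 3.35 CPM and rose by 0.83 (0.54 without shLuc replicate 2). Its neighbour Col4a1, whose exons overlap those of Col4a2 on the opposite strand, was called higher at 0.41 (not called without shLuc replicate 2, at 0.22, without shMyb replicate 2, at 0.24, or with the trend correction, at 0.25). Lamb2 rose by 0.56, a call that ended without shLuc replicate 2 (0.46) and with the trend correction (0.34). Col18a1, the source of endostatin, was not called (0.43, edgeR adjusted p = 0.0666) but passed with shLuc replicate 1 left out (0.66) and with shMyb replicate 1 left out (0.60). Lamb1 overlapped between the groups.

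Of the other collagens 5 rose (45.5%) and 2 fell (18.2%) among 11 tested. The shares were 30.6% and 31.7% among all tested genes, and 37.4% and 14.2% among those under 10 CPM. The 3 classical chains of type VI collagen, a filament-forming collagen made by stromal cells, were each lower on average in the shMyb-labelled libraries. Col6a3 was at 9.81 and 6.86 CPM against 4.05 and 4.10 CPM and fell by 1.03 (SE 0.16; -1.28 without shLuc replicate 2 and -0.77 without shLuc replicate 1). Col6a1 was called lower at -0.49 (not called without shLuc replicate 1, at -0.42, or without shMyb replicate 1, at -0.48). Col6a2 was not called at -0.21, and was called lower with the trend correction at -0.44. Col7a1, the collagen of anchoring fibrils, rose by 0.97, and Col20a1 rose by 1.02. Col9a3 was called higher at 0.93 (0.62 and not called without shMyb replicate 2). Col16a1 was called higher at 0.80, but that value ran from 0.27 without shLuc replicate 2 to 1.52 without shLuc replicate 1, and the call ended without shLuc replicate 2 or either library labelled shMyb, with the trend correction (0.38) and with library totals (0.86). Col6a5 rose by 2.49 (SE 0.61) on 3 and 3 counts in shLuc and 12 and 20 in the others. Col12a1, Col26a1 and Col6a6 were not called.

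Of the 32 calls over all roles, 22 (11 higher and 11 lower) held in every alternative run that tested the member. Among them were the 9 members lower by at least 2-fold. Col6a5 was not tested with the 1 CPM filter. The matching share over all called genes is not given here, so this count cannot show whether members held more often than other genes. With DESeq2, the calls of Col4a1, Col6a1, Col16a1, Lama5, Lamb2, Postn, Sparc and Timp1 were lost. With limma-voom, Col3a1 (1.36) was called higher, and with RLE scaling or the trend correction Col1a2 was called lower (-0.18 and -0.21). Besides Timp3, Col4a1 and Col4a2, the tested members Fn1, Lox, Thbs1, Thbs3, Fbn1, Nid1, Lama3, Col5a1, Col6a6, Col9a3 and Col4a3bp have exons that overlap a gene on the opposite strand. The kit kept strand, but the strand setting of the counting is not given in the sources used here, so their values are uncertain to that extent.

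A different kind of common movement appeared between duplicates. Of the 51 members with at least 20 counts over the shLuc pair, 44 were higher in shLuc replicate 1 than in shLuc replicate 2, 7 were not, and the median ratio was 1.17. Among the 36 tested members from 1 to 30 CPM the share was 91.7%, beside 54.6% of all tested genes at that level. The 95% interval of the ratio, which covers counting error only, lay above 1 for 17 members and below 1 for none. In the shMyb-labelled libraries the tilt was the other way, with 36 of 51 members higher in replicate 2, a median ratio of 0.891 and an interval below 1 for 11 members. Genes of low level tilted the same way, but by less: under 10 CPM, 26.8% of tested members and 41.5% of all tested genes were higher in shMyb replicate 1, and 87.8% and 61.2% in shLuc replicate 1. At that level the interval lay above 1 in shLuc for 29.3% of members and 9.74% of all genes, and below 1 in the other pair for 22% and 7.44%. Of 49 members that could be compared in both pairs, 31 (63.3%) were higher in both shLuc replicate 1 and shMyb replicate 2, beside 38.1% of tested genes under 10 CPM. These ratios compare single libraries and not the conditions.

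Of the 30 stromal markers that are no members, 13 of 19 were higher in shLuc replicate 1 and 8 of 18 in shMyb replicate 1. Their median ratios of replicate 1 over 2 were 1.15 and 0.982. Among all tested genes under 10 CPM, 61.2% and 41.5% were higher in replicate 1, with median ratios of 1.06 and 0.964. Whether the stromal markers differ from those genes in this was not tested. Among the members, Dcn was 3.19 times as high in shLuc replicate 1 as in replicate 2 (95% interval 1.66 to 6.52) and 0.560 times in shMyb replicate 1 as in replicate 2 (0.360 to 0.857). Col3a1 stood at 2.29 (1.83 to 2.89) and 0.865 (0.750 to 0.998), and Col1a1 at 1.34 (1.19 to 1.52) and 0.853 (0.754 to 0.965). With Col4a1 these were the 4 members whose interval lay above 1 in shLuc and below 1 in the other pair. Col16a1 (2.40) and Thbs3 (2.48) also had high ratios in shLuc. Among the genes that fell, Thbs1 was at 1.02 and 1.01 and Bgn at 1.04 and 1.04. Over the 14 members that fell, the median ratio was 1.07 in shLuc and 0.981 in the shMyb-labelled libraries. Over those that rose it was 1.24 (17 members) and 0.960 (18 members). Over those not called it was 1.27 (19 members) and 0.859 (18 members). A call itself depends on the spread between these duplicates, so a difference between called and uncalled members is partly built in. Col2a1 stood apart, with a ratio of 1.90 (1.27 to 2.89) in the shMyb-labelled libraries.

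**Figure D4:**
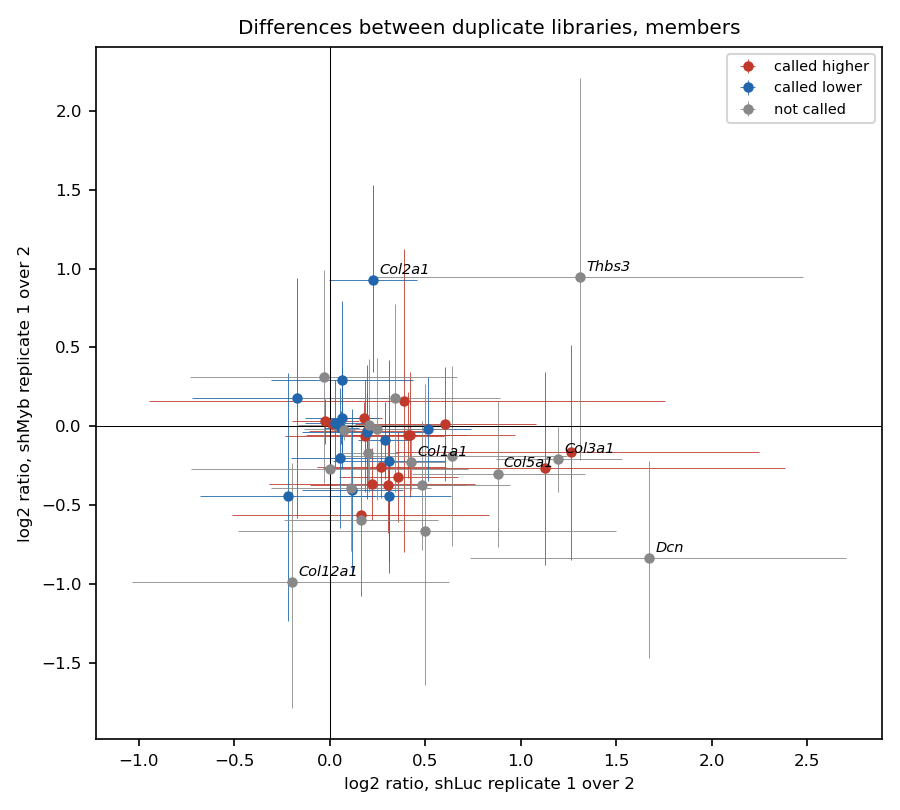
log2 ratio of replicate 1 over replicate 2 in shLuc (x axis) and in shMyb (y axis) for 48 members, with 95% counting intervals; red was called higher, blue lower and grey not called between the groups. Most points lie right of 0 and below 0, with Dcn at 3.19 in shLuc on the linear scale, while Col2a1 lies above 0 in shMyb.

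Markers of stromal cells other than matrix genes were measured beside these changes. Of 30 such markers 19 passed the filter and 13 averaged 1 CPM or more in either group. Of all tested genes 30.6% rose and 31.7% fell, and of those under 10 CPM 37.4% rose and 14.2% fell. Of the 19 stromal markers, 5 rose, 9 fell and 5 were not called, and the median log2 fold change was -0.21. Their sum was 316 and 309 CPM in shLuc, against 313 and 315 CPM in the shMyb-labelled libraries, most of it from Csf1, a macrophage growth factor that fell by 0.78, and Foxc1, a transcription factor that rose by 0.96, with Igfbp4 next (1.09). Without Csf1 and Foxc1, a choice made after their levels were seen, the sum was 63.1 and 57.6 CPM against 49.2 and 53.8 CPM. Further examples from this list, chosen after their values were seen, went both ways. Cnn1, calponin, fell from 22.1 to 5.62 CPM (-1.97), Cav1, caveolin, from 3.85 to 1.67 CPM (-1.21), and Cxcl12, a chemokine, from 1.91 to 0.551 CPM (-1.80). Tagln, transgelin, rose by 1.29. The 5 that were not called were each below 1 CPM, among them 3 receptor or adhesion genes: Pdgfra was at 0.505 and 0.456 CPM, Pdgfrb at 0.468 and 0.644 CPM and the cadherin gene Cdh11 at 0.413 and 0.366 CPM in the means of shLuc and shMyb. Vcam1 had 3 to 6 counts per library, and Lepr, Ptx3 and Twist2 had at most 1. The part of feeder cells in the matrix signal was not tested.

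Markers of other matrix-making or blood cells were mostly low, and of all tested genes under 10 CPM 37.4% were called higher and 14.2% lower. In the fat cell list Pparg (0.746 and 0.446 CPM), Fabp4 (0.614 and 0.460 CPM) and Lpl (0.299 and 0.181 CPM) were tested and not called, and Cfd had no count. In the bone cell list Alpl (268 and 203 CPM) and Spp1 (3.94 and 2.29 CPM) fell, Runx2 had 4 to 10 counts per library, and Sp7 and Ibsp had no count. All 3 tested endothelial markers rose, Pecam1 from 34.2 to 61.4 CPM, Vwf from 0.159 to 0.575 CPM and Cdh5 from 0.0845 to 0.573 CPM, whereas Kdr, Tek and Emcn had at most 8 counts. Of the megakaryocyte markers, Gp1bb was called higher, Itga2b was not, and Pf4 had 1 to 9 counts. Of 6 tested myeloid markers 4 rose, among them Cd68 and Itgam, and Csf1r was not called; the list summed to 5.88 and 4.98 CPM in shLuc, against 9.16 and 10.7 CPM in the shMyb-labelled libraries. Whether these cells had a part in the changes of matrix genes was not tested.

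In the wider matrix pathway the counts below stand beside 30.6% higher and 31.7% lower among all tested genes. Of 21 tested genes for collagen folding, modification and processing, 5 rose and 8 fell: P4hb, a subunit of prolyl hydroxylase, fell by 0.28 from 353 CPM, its partner P4ha1 rose by 0.26 from 172 CPM, and the isomerase gene Ppib fell by 0.24. Of 31 tested genes for other matrix proteins and proteases 11 rose and 10 fell. There Fbln2, fibulin 2, was at 14.6 and 13.0 CPM in shLuc and at 3.62 and 3.99 CPM in the others and fell by 1.86 (SE 0.10), Smoc1, a Sparc relative, was at 4.25 and 3.76 CPM against 13.6 and 16.1 CPM and rose by 1.89 (SE 0.10), and Mmp11 fell by 0.54. Of 25 tested matrix receptors 11 rose and 11 fell, with the thrombospondin receptor gene Cd47 lower by 0.33, the syndecan gene Sdc4 higher by 0.33, and Itga4, an integrin chain that binds fibronectin, not called at 363 and 382 CPM. Of 17 genes of TGF-beta signalling and related control, which induces many matrix genes, 6 rose and 5 fell. Tgfb3 was at 543 and 540 CPM against 358 and 361 CPM and fell by 0.59 (SE 0.04), Tgfb1 fell by 0.09, and Tead1 was not called (0.32, edgeR adjusted p = 0.0560).

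Promoter sequences are shown for 2 members that fell and 2 that rose, to set genes of opposite direction side by side. They are the 250 bases before the RefSeq start (GRCm38.p6), read in the direction of the gene, for Thbs2 (chr17:14694263-14694512, minus strand), Bgn (chrX:73483351-73483600, plus strand), Col5a3 (chr9:20815068-20815317, minus strand) and Col27a1 (chr4:63215162-63215411, plus strand). Capitals mark the core letters bound by Myb-type factors, AACNG on either strand.
Thbs2: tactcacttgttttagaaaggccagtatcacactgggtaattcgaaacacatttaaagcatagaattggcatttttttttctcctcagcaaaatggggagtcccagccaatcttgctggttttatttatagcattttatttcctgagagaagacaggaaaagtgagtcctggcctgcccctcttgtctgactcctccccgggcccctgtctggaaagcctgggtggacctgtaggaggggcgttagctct
Bgn: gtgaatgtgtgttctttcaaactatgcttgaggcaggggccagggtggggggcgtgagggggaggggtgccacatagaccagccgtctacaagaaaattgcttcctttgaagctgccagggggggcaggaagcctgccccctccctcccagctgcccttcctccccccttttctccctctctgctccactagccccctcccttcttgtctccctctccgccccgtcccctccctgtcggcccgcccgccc
Col5a3: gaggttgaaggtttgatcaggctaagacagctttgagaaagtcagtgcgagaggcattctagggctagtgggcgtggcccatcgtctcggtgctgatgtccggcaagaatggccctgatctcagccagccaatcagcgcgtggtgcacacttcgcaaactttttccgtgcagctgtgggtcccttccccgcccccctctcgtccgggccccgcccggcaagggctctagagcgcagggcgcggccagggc
Col27a1: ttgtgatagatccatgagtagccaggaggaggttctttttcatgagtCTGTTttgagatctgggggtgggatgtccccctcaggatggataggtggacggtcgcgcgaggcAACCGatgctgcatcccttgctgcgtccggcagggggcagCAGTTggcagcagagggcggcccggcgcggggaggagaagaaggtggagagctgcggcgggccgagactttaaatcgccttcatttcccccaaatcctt
The core stood 3 times in Col27a1 and not in the other 3 windows shown. It also stood 3 times in the window of Col3a1, a member that was not called and whose sequence is not shown. The Col27a1 window, set by the RefSeq start, lies inside the gene span given above, which comes from GENCODE. The core is a short and common string, found in 74.1% of 27025 promoter windows of that length. It was in 7 of 10 windows of members that fell, 8 of 15 of members that rose and 6 of 10 of tested members that were not called. The GC box GGGCGG, on either strand, was in 25 of 35 windows of tested members (71.4%) against 32.9% of all windows. The GC content of these windows had a median of 62.0% against 52.0%. All windows include those of genes that were not tested here. Whether matrix genes differ in this from other tested genes was not tested. These matches describe letters, and no binding was measured.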

How the data were processed

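RNA-seq was analysed for 4 libraries, 2 per group, assigned by their titles. The authors deposited raw read counts per gene symbol; the mm10 build and the tools STAR, HTSeq, DESeq2 and FastQC stand, without versions or roles, in the submitters' processing notes, while annotation, strand setting and read filters are not given in the sources. Genes that overlap on opposite strands may therefore share reads. From the counts, genes were kept by filterByExpr (minimum count 10; 12610 of 16832 with a count), scaled by TMM and tested with edgeR 4.0.16 (R 4.3.3) by glmQLFit with robust=TRUE and glmQLFTest, group being the only term, with Benjamini-Hochberg adjustment over all tested genes and calls at an adjusted p below 0.05. Standard errors are the fold change divided by the square root of F, and 95% intervals use the test's degrees of freedom. Ratios between duplicates carry exact binomial 95% intervals. Exon length and coordinates (1-based) come from GENCODE M21 (GRCm38, also called mm10), which matched all 76 members; promoters come from RefSeq, which held 54. In each file, 27 symbols were spreadsheet dates and stayed in the totals. Named are members at 1 CPM or more in a group, members called at 2-fold or more, and up to 3 of the most abundant genes of each other list; further genes were named for their role or counts after their values were seen. Duplicates differed by more than counting noise (chi-square per degree of freedom 3.81 and 4.24), and each counted as 1 sample. Alternatives were RLE scaling, library totals, a loess trend correction, no filter, a 1 CPM filter, DESeq2 1.42.0, limma-voom (limma 3.58.1), a replicate block and leaving out each library. The test was also run on simulated data in which few genes changed and no trend with level was present. The data here differ in both, so that run cannot vouch for these calls. P3h1, Colgalt1 and Adgre1 were not analysed here. The values of 1 tested member are not reported here, though it stays in the counts. The members and lists were chosen with earlier results of these data known.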

Additional observations from a re-analysis of the deposited data

How the results depend on the processing

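The limit on all of these results is 2 libraries per group. Counts past the threshold among 51 tested members (18 higher, 14 lower, 62.7% called, with 62.2% of all tested genes) were 18 and 15 with RLE scaling (64.7%, all genes 62.6%), 17 and 14 with library totals (60.8%, 61.6%), 13 and 17 with the trend correction (58.8%, 60.4%), 12 and 12 with DESeq2 (47.1%, 47.8%) and 20 and 14 with limma-voom (66.7%, 61.9%). They were 21 and 15 of 70 without a filter (51.4%, 47.8%) and 15 and 14 of 41 with the 1 CPM filter (70.7%, 65.5%). Leaving out 1 library gave 14 to 22 higher and 13 or 14 lower members, and 6626 to 7481 called genes in all. A library left alone in its group was assumed to vary like the other group.

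The median fold change of the members was -0.053 with the trend correction and 0.0058 with the 1 CPM filter, and ran from 0.013 (without shMyb replicate 2) to 0.32 (without shLuc replicate 1) when a library was left out. Myb was called higher with library totals (0.11) and with the trend correction (0.17), and ran from 0.02 to 0.07 without 1 library. The summed level was 418, 371, 370 and 389 CPM without Lamc1, and 686 CPM in shMyb replicate 2 with library totals. With library totals 60.1% of all called genes were higher, against 49.1% here, since the median of all genes moved to 0.07. The sign of uncalled members turned for Col5a2 (0.031), Col4a3bp (0.056) and Col5a1 (0.048) with library totals, for Col4a3bp (0.040), Col26a1 (-0.15), Mmp2 (-0.11) and Col6a6 (-0.053) with the trend correction, for Col4a3bp (0.0058) with the 1 CPM filter and for Col5a1 (0.051) with limma-voom. Without 1 library, Col5a2 ran from -0.36 to 0.23, Lamb1 from -0.30 to 0.027, Col4a3bp from -0.054 to 0.010, Col5a1 from -0.41 to 0.46, Col1a1 from -0.14 to 0.28 and Mmp2 from -0.085 to 0.54. For these the cause was not tested.

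Whether the replicate numbers pair the samples is not given in the library titles. The deviations of same-numbered libraries correlated at -0.19. With 2 libraries per group this compares a single difference in each group, so it cannot decide the pairing. With a replicate block, 18 members were higher and 15 lower, 7341 genes were called in all, and Col5a1 was at 0.012. With the numbers crossed, an alternative chosen after seeing the data, 21 members were higher and 15 lower, and 8593 genes were called.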
